A study of Mus musculus with 13 samples.

Results

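The neuregulin and betacellulin ligands and the ErbB receptors were followed in single excitatory neurons of the mouse claustrum, a thin sheet of neurons beneath the insular cortex. The 9 genes were Btc, Nrg1, Nrg2, Nrg3 and Hbegf, which encode ligands, and Egfr, Erbb2, Erbb3 and Erbb4, which encode their receptors, of 23427 genes listed in the count tables. Cells were harvested by hand from the claustrum of 4 mature male wild-type C57BL/6 mice. In the blindly sampled mouse, a retrograde GFP virus injected into the anterior cingulate cortex guided the dissection, but cells were picked without regard to GFP. In projection mice 1, 2 and 3, fluorescent retrobeads placed in the lateral entorhinal cortex (LEC) and the retrosplenial cortex (RSC) marked neurons that project there, and cells were picked as LEC-labeled, RSC-labeled or unlabeled. An unlabeled cell may still project to either area, because beads reach only a share of the axons.

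Of 1112 harvested cells, 1011 were kept because both Snap25, a gene of neurons, and Slc17a7, a gene of glutamatergic cells, were counted in them. Cells were then grouped in 2 ways, by projection label and by a pair of markers. The first marker was Synpr, used as a marker of the core of the claustrum, at 200 CPM or more, where CPM is the count scaled to a total of 1000000 for the cell or sum. The second was Slc30a3, used as a marker of its shell, at 20 CPM or more. These groups were chosen by the measured counts of Snap25, Slc17a7, Synpr and Slc30a3 and by the bead labels, and no count of the 9 genes entered them. The kept cells comprised 359 Slc30a3-only cells, 418 Synpr-only cells, 20 cells over both limits and 214 cells under both limits. Few cells lay near the Synpr limit, with 13 cells at 100 to 200 CPM and 8 cells at 200 to 400 CPM of Synpr. None of these 21 cells had a Btc count, but only 2.47% of all kept cells had one, so 21 cells cannot show its absence. Near the Slc30a3 limit lay 17 cells at 10 to 20 CPM and 10 cells at 20 to 40 CPM. Of these, 1 cell had Btc, with 5 counts, and at 19.7 CPM of Slc30a3 it fell under both limits.

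The total count per kept cell had a median of 26023 in the blindly sampled mouse and between 138535 and 154262 in the projection mice. The study used 2 flow cells, one for 3 plates and one for 10. The blindly sampled mouse has 3 plates, but which plates were run together is not stated in the sources used here, and its lower depth cannot be told apart from the animal. Its table does not list Erbb3 or Erbb4. Within the projection mice each label of each mouse had plates of its own, except that plate 12 held LEC-labeled and RSC-labeled cells of projection mouse 3. Outside that plate, label and plate cannot be told apart. Of 368 cell barcodes, 343 occur on more than 1 plate of the projection mice, and none on more than 1 plate of the blindly sampled mouse. A summed list of 4 excitatory neuron markers stood at 3646 to 6313 CPM over the labels of the projection mice. In sums over cells, fewer cells with a transcript and less of it per cell cannot be told apart, so shares of cells are given beside levels.

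ErbB receptors are tyrosine kinases that pair up when a ligand with an EGF-like domain binds. Nrg1 and Nrg2 bind Erbb3 or Erbb4, Nrg3 binds Erbb4, while Hbegf and Btc bind Egfr and Erbb4, and Erbb2 has no ligand of its own and serves as the partner of the others. In the cortex, neuregulins made by excitatory neurons are known for acting on Erbb4 of inhibitory interneurons, and Erbb3 is known from glia. Counts here come from the ends of transcripts and reads were not divided by length, so levels are compared between groups for 1 gene and not between genes.

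The ligands are recognised by the EGF-like stretch that binds the receptor, and it is shown for the ligand that differed between groups and for the neuregulins with the most counts. A search of the longest open reading frames of the GENCODE vM21 transcripts for 6 cysteines at the spacing of this domain found the coding sequences below, written 5′ to 3′ with the cysteine codons in capitals.
Btc: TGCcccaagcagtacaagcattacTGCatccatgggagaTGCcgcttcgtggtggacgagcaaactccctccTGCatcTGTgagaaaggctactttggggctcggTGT
Nrg1: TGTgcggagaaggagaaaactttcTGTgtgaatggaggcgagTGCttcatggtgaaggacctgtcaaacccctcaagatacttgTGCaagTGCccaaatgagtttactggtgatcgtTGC
Nrg3: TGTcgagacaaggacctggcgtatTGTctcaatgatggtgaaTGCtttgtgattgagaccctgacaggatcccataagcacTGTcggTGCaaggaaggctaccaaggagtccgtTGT

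All lie on the minus strand of GRCm38 and cross an intron. The Btc stretch spans chr5:91362421-91366197 in exons 3 and 4 of 6, that of Nrg1 spans chr8:31837698-31849398 in exons 2 and 3 of 9, and that of Nrg3 spans chr14:38668261-39012054 in exons 2 and 3 of 10. The submitters' processing notes name another build, NCBIM37, so these positions belong to the sequences and not to the count tables. The stretches hold 36, 40 and 39 residues. The Btc stretch shares 14 of 36 aligned residues with Nrg1 and 16 of 35 with Nrg3, and Nrg1 and Nrg3 share 14 of 39. A read at the end of a transcript does not show which isoform carried this stretch, and for Nrg1 the match was present in 10 of 12 protein-coding transcripts.

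A ligand was counted in many of these neurons and a receptor in few. At least 1 of the 5 ligands was counted in 435 of 1011 kept cells (43.0%), with 4764 counts in all. At least 1 of the 4 receptors was counted in 17 kept cells (1.68%), with 452 counts in all. The total includes 238 kept cells of the blindly sampled mouse, whose table does not list Erbb3 or Erbb4. Nrg3 alone was counted in 256 of the 435 cells with a ligand. These shares count cells and are no measure of the level of 1 gene against another.

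Nrg3 was counted in 256 kept cells, which is 25.3% (95% exact Clopper-Pearson interval, 22.7 to 28.1%). Nrg1 was counted in 130 cells, Nrg2 in 84, Hbegf in 38 and Btc in 25. After every cell was thinned to 20000 counts, which 927 cells reached, the shares were 16.7% for Nrg3, 7.66% for Nrg1, 3.45% for Nrg2, 2.27% for Btc and 2.05% for Hbegf. Intervals cover counting error only, and the sources used here do not state whether copies of 1 molecule were merged. The cells with Btc had a median of 19 counts of it.

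Btc, the gene of betacellulin, was counted only in cells under the Synpr limit. Its 486 counts lay in 25 cells, of which 16 were Slc30a3-only and 9 were under both limits. None of the 438 cells over the Synpr limit had a Btc count, which allows a share of up to 0.685%. Here and below this limit for a count of 0 is 3 cells of the total, and the upper end of the exact Clopper-Pearson interval is 0.839% for these cells. In the 4 mice, blindly sampled first and then projection mice 1 to 3, Btc stood at 0.766, 9.92, 6.92 and 5.68 CPM in the cells under the limit and at 0 in the cells over it. In each projection mouse the level under the limit lay above the floor of 3 counts for the cells over it. In the blindly sampled mouse, with 3 counts in 2 cells, it lay below that floor of 0.867 CPM, so a difference was not detectable there.

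Btc passed the low-count filter only through the cells under the limit, so the direction of its difference was fixed once it was tested. Its p-values against groups at 0 are therefore given here and below as descriptions. By edgeR's quasi-likelihood test the adjusted p was 0.0055, in a comparison where 1196 of 13637 genes were called, or 8.77%. With these limits and the low-count filter, edgeR called no other gene of the 9 in any comparison over all mice. The level under the limit, 6.89 CPM over all mice, was 142 times a floor of 3 counts over the group above the limit. That floor takes counts as independent, while cells with Btc had a median of 19 counts, so the ratio is no lower bound on the difference. By cells, 4.36% of those under the limit had a count, against up to 0.685% of those over it. The ratio to the floor was 84.2 without projection mouse 1 and 87.4 without projection mouse 3. It was between 113 and 141 without the blindly sampled mouse or projection mouse 2. The fitted log2 difference of -9.59 ± 1.36 (SE, n = 4 mice) rests on a group at 0 and depends on a prior count, so it is no measure of size. The adjusted p ranged from 2.13e-09 to 0.048 over 13 alternatives. The gene was not tested, because it failed the filter, in cells thinned to 20000 counts and in cells with at least 2 counts of Snap25 and Slc17a7.

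**Figure D1:**
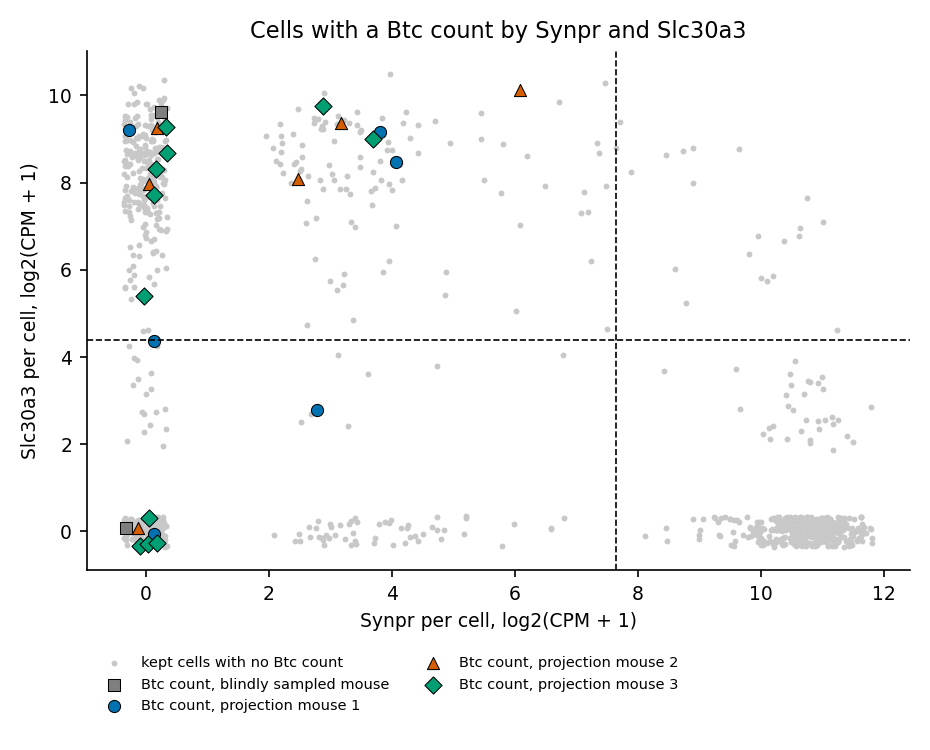
Each point is 1 of the 1011 kept cells, placed by its Synpr level (x axis) and Slc30a3 level (y axis) in log2(CPM + 1), with points at 0 spread at random by up to 0.35 for sight; dashed lines mark the limits of 200 and 20 CPM. The 25 cells with a Btc count, drawn in the colour and shape of their mouse, all lie left of the Synpr limit, 16 of them above the Slc30a3 limit.

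The cells were then divided by both limits. The classes share cells with the comparison by the Synpr limit and are not independent of it. Synpr-only cells are part of those over that limit, so their 0 repeats the result above. Btc stood at 0.847, 7.53, 8.45 and 6.13 CPM in the Slc30a3-only cells of the 4 mice, at 0.642, 12.8, 3.16 and 4.39 CPM in cells under both limits, and at 0 in the Synpr-only cells. Slc30a3-only cells and cells under both limits overlapped widely. Their log2 difference was -0.12 ± 0.88 (SE, n = 4 mice), which did not pass edgeR's test (adjusted p = 1), in a comparison where 63 of 14331 genes were called (0.44%). Between Synpr-only and Slc30a3-only cells the adjusted p was 0.0038, with 678 of 14331 genes called (4.73%), and here too Btc passed the filter only through the classes that hold counts. The Slc30a3-only level was 135 times a floor of 3 counts over the Synpr-only cells, and 80.4 times it without projection mouse 3. As above, this ratio is no lower bound on the difference. This call was lost without projection mouse 2 (adjusted p = 0.053) or projection mouse 3 (adjusted p = 0.072).

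Cells under both limits were also compared with the mean of the other classes, where 400 of 14331 genes were called (2.79%) and Btc was among them (adjusted p = 0.024). That call sets a class with counts against a mean that includes a class at 0, and it was lost without any of the 3 projection mice (adjusted p up to 0.47 over 17 alternatives). The comparison with the Slc30a3-only cells above, added after the values were seen, has no class at 0.

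Divided by Slc30a3 alone, Btc stood at 0.757, 7.02, 7.99 and 5.84 CPM over the limit and at 0.211, 4.17, 1.08 and 0.921 CPM under it. The value over the limit was the higher in projection mice 1, 2 and 3, with 3 positive cells on each side in projection mouse 1. In the blindly sampled mouse, 2 counts in 1 cell stood against 1 count in 1 cell. Both lay below the floor of 3 counts, so a difference was not detectable there. The difference of 1.71 ± 0.82 on the log2 scale (SE, n = 4 mice) did not pass edgeR's test (adjusted p = 0.39; range over 15 alternatives, 0.080 to 0.80), with 492 of 13491 genes called (3.65%). The lower group here holds the Synpr-only cells together with the cells under both limits, which differ in Btc.

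The cells with Btc under both limits were of more than 1 kind by their markers. A summed list of 7 layer 6 markers (Ctgf, Sla, Foxp2, Fezf2, Tle4, Syt6 and Rprm) was over 500 CPM in 5 of the 9 cells and at 0 in the other 4. Among the 214 cells under both limits, Btc was counted in 5 of 88 cells with the layer 6 list over 500 CPM and in 4 of 126 of the others. None of the 16 Slc30a3-only cells with Btc had that list over 500 CPM, and it was at 0 in 11 of them. A summed list of 4 shell markers (Slc30a3, Nnat, Spon1 and Col6a1) was at 1255 to 4099 CPM in these 16 cells. Among the 9 cells under both limits, it was at 1228 to 2611 CPM in the 4 with the layer 6 list at 0. In the other 5 it was at 400 to 2534 CPM. The limit of 500 CPM was set after the values were seen.

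By projection, Btc had counts in LEC-labeled and unlabeled cells and no count in any RSC-labeled cell. The 286 LEC-labeled cells held 282 counts in 12 cells, the 240 unlabeled cells held 201 counts in 11 cells, and the 247 RSC-labeled cells held none, which allows a share of up to 1.21% (exact Clopper-Pearson upper end, 1.48%). In projection mice 1, 2 and 3, Btc stood at 10.2, 3.11 and 4.55 CPM in LEC-labeled cells, at 3.87, 7.59 and 4.22 CPM in unlabeled cells and at 0 in RSC-labeled cells. A single cell gave all counts of LEC-labeled cells in projection mouse 2, and a single cell gave all counts of unlabeled cells in projection mouse 1.

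Between RSC-labeled and LEC-labeled cells the adjusted p of Btc by edgeR was 0.0038 (range over 12 alternatives, 8.28e-08 to 0.088), in a comparison that called 552 of 13958 genes (3.95%). Btc passed the filter only through the LEC-labeled and unlabeled sums, so this p is a description as well. The LEC level was 79.0 times a floor of 3 counts over the RSC-labeled cells, which again is no lower bound on the difference. By cells, 4.20% of LEC-labeled cells had a count, against up to 1.21% of RSC-labeled cells. The ratio to the floor was 36.0 without projection mouse 1, 75.7 without projection mouse 2 and 47.0 without projection mouse 3. The call was lost without projection mouse 3 (adjusted p = 0.088). Between RSC-labeled and unlabeled cells the adjusted p was 0.013, with 227 genes called (1.63%), and that call was lost without any 1 of the 3 mice (adjusted p up to 0.11).

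LEC-labeled and unlabeled cells differed in Btc by 0.18 ± 0.65 on the log2 scale (SE, n = 3 mice; adjusted p = 0.99). In that comparison edgeR called 0 of 13958 genes (0%), with 1082 genes at an unadjusted p under 0.05, while DESeq2 called 121 genes, limma 24 and edgeR with the mouse as a block 2.

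Within plate 12, where label and plate are not confounded, 2 of 44 LEC-labeled cells held 52 Btc counts (5.83 CPM) and 0 of 34 RSC-labeled cells held any. A count of 0 in 34 cells allows a share of up to 8.82%, so the difference was not detectable on that plate alone. Without plate 12 the adjusted p between RSC and LEC was 0.0075, an alternative added after the values were seen.

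Projection and Synpr class overlapped, and Btc could not be divided between them at this depth. Of the RSC-labeled cells, 213 were over the Synpr limit and 34 under it. None of the 34 had a Btc count, which allows up to 8.82%, against 12 of 241 LEC-labeled cells under the limit (4.98%). None of the 45 LEC-labeled or 67 unlabeled cells over the limit had a Btc count, which allows up to 6.67% and 4.48%, against 11 of 173 unlabeled cells under it (6.36%).

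Other cell types' markers were looked at beside this result. A summed list of 6 astrocyte markers stood at 49.1 to 89.7 CPM in the LEC-labeled sums and at 14.5 to 33.8 CPM in the RSC-labeled sums, which do not overlap. All 6 astrocyte markers had counts in LEC-labeled cells and 5 of 6 in RSC-labeled cells. The interneuron list (478 to 1039 CPM against 19.6 to 715 CPM) and the oligodendrocyte list (110 to 378 CPM against 37.4 to 929 CPM) overlapped between these labels. In LEC-labeled cells 3 of 7 interneuron markers (Gad1, Gad2 and Sst) had no count. Over the Synpr limit the astrocyte list stood at 15.4 to 37.2 CPM and under it at 24.0 to 78.7 CPM. The part of these cells in the Btc result was not tested.

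**Figure D2:**
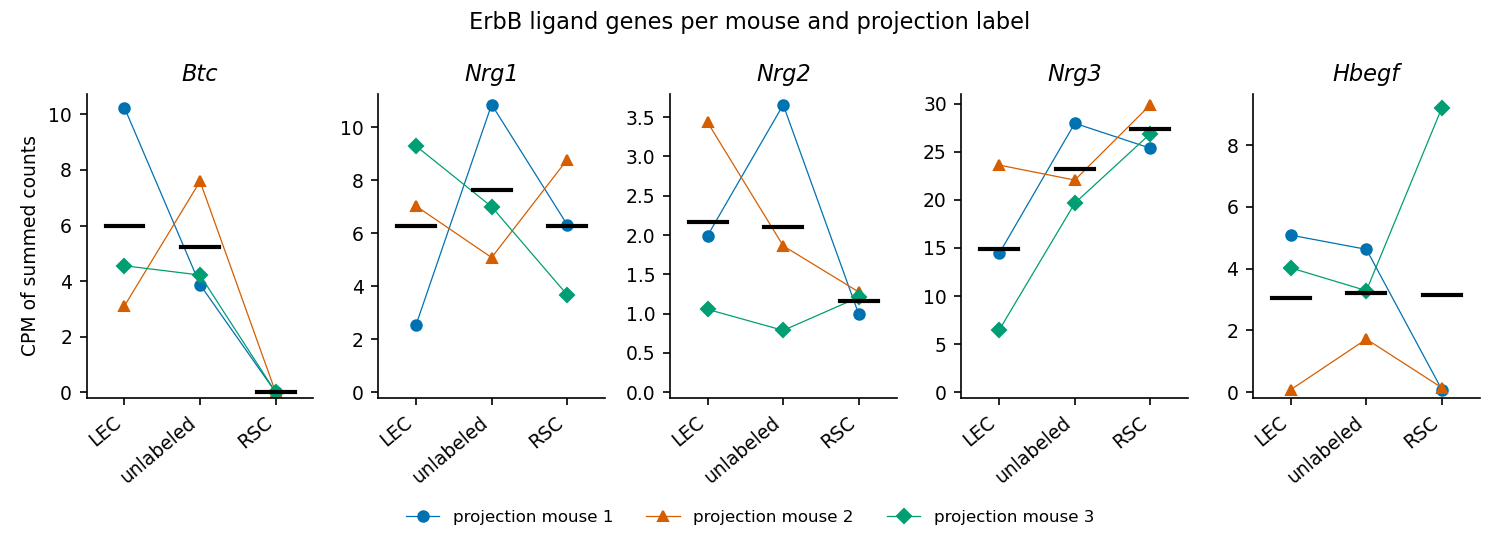
CPM of the summed counts (y axis, starting at 0) of the 5 ligand genes in LEC-labeled, unlabeled and RSC-labeled cells of projection mice 1 to 3 (points, joined within a mouse), with the mean over mice as a black bar. Btc is at 0 in the RSC-labeled cells of every mouse, and Nrg3 lies higher in RSC-labeled cells (25.4 to 29.9 CPM) than in LEC-labeled cells (6.47 to 23.6 CPM).

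Nrg3, a neuregulin made largely in the nervous system that signals through Erbb4, had the most counts of the 9 genes, 2708 in all, and was at 20.7, 21.7, 24.3 and 17.3 CPM over the kept cells of the 4 mice. It stood at 14.4, 23.6 and 6.47 CPM in the LEC-labeled cells of projection mice 1, 2 and 3, at 28.0, 22.1 and 19.7 CPM in unlabeled cells and at 25.4, 29.9 and 26.9 CPM in RSC-labeled cells. The RSC and LEC values did not overlap, and the LEC-labeled cells of projection mouse 3 were the lowest.

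The difference of 0.92 ± 0.39 on the log2 scale between RSC and LEC (SE, n = 3 mice) did not pass edgeR's test (adjusted p = 0.25; range over 12 alternatives, 0.14 to 0.60). Against unlabeled cells the differences were 0.26 ± 0.38 for RSC and -0.66 ± 0.38 for LEC, and neither passed (adjusted p = 0.86 and 0.76). In thinned cells Nrg3 was counted in 22.0, 21.2 and 20.4% of RSC-labeled cells and in 12.8, 16.4 and 7.81% of LEC-labeled cells of the 3 mice. Within plate 12, Nrg3 stood at 28.5 CPM in 34 RSC-labeled cells and at 7.63 CPM in 44 LEC-labeled cells, with 10 and 4 positive cells.

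By Synpr, Nrg3 was at 24.6, 26.1, 27.7 and 23.0 CPM over the limit and at 17.4, 17.4, 22.3 and 11.4 CPM under it. The groups did not overlap, and the value over the limit was the higher in 4 of 4 mice. The log2 difference of 0.62 ± 0.23 (SE, n = 4 mice) did not pass edgeR's test (adjusted p = 0.14; range over 15 alternatives, 0.051 to 0.39). Summed over mice, Nrg3 stood at 26.1 CPM in the 34 RSC-labeled cells under the Synpr limit and at 12.5 CPM in the 241 LEC-labeled cells under it. Over the limit the values were 27.0 CPM in RSC-labeled and 16.3 CPM in LEC-labeled cells. The values of single mice overlapped between the labels on both sides of the limit. Under it they were 15.4 to 38.4 CPM (RSC) and 5.90 to 21.5 CPM (LEC), and over it 25.8 to 27.6 CPM (RSC) and 9.36 to 33.15 CPM (LEC).

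Between the classes, Nrg3 stood at 17.5 ± 5.21 CPM (SD, n = 4 mice) in Slc30a3-only cells, 17.7 ± 6.24 CPM in cells under both limits and 24.997 ± 3.347 CPM in Synpr-only cells. Its log2 difference of 0.56 ± 0.40 (SE) between Synpr-only and Slc30a3-only cells did not pass edgeR's test (adjusted p = 0.68).

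Nrg1, the founding neuregulin, stood highest in the cells under both limits. It was at 24.4, 11.6, 9.65 and 12.5 CPM in those cells of the 4 mice, at 3.81, 2.48, 5.74 and 7.28 CPM in Slc30a3-only cells and at 5.66, 5.22, 5.43 and 4.74 CPM in Synpr-only cells. The lowest of the first group lay above the highest of the others, and the blindly sampled mouse was the highest, with 38 counts in 9 of 46 cells.

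Against the mean of the other classes the log2 difference was 1.50 ± 0.43 (SE, n = 4 mice), which did not pass edgeR's test (adjusted p = 0.087). It passed with DESeq2 (adjusted p = 0.0066) and with an Slc30a3 limit of 40 CPM (adjusted p = 0.044), and the range over 17 alternatives was 0.0066 to 0.59. In thinned cells the difference was 0.88. In those cells Nrg1 was counted in 21.9, 13.8, 5.13 and 7.41% of cells under both limits and in 7.41, 1.54, 6.82 and 8.87% of Slc30a3-only cells, higher in 2 of 4 mice.

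The layer 6 list stood at 381 to 525 CPM in the cells under both limits, at 17.4 to 58.9 CPM in Slc30a3-only cells and at 15.6 to 29.1 CPM in Synpr-only cells. Within the cells under both limits, Nrg1 was counted in 21 of 88 cells with the layer 6 list over 500 CPM (23.9%) and in 18 of 126 of the others (14.3%). The level in the former was 34.5, 10.5, 9.50 and 23.0 CPM in the 4 mice and in the latter 13.4, 12.2, 9.75 and 7.63 CPM, so the order differed between mice.

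Nrg1 did not follow the projection labels. It stood at 2.54, 7.03 and 9.29 CPM in LEC-labeled cells, at 10.9, 5.08 and 7.004 CPM in unlabeled cells and at 6.32, 8.78 and 3.68 CPM in RSC-labeled cells of projection mice 1, 2 and 3. The log2 difference of 0.01 ± 0.55 (SE, n = 3 mice; adjusted p = 1.0) between RSC and LEC turned negative in some alternatives. An annotated gene on the opposite strand, Gm26578, shares exon bases with Nrg1. Whether strand was used in counting is not stated in the sources used here.

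**Figure D3:**
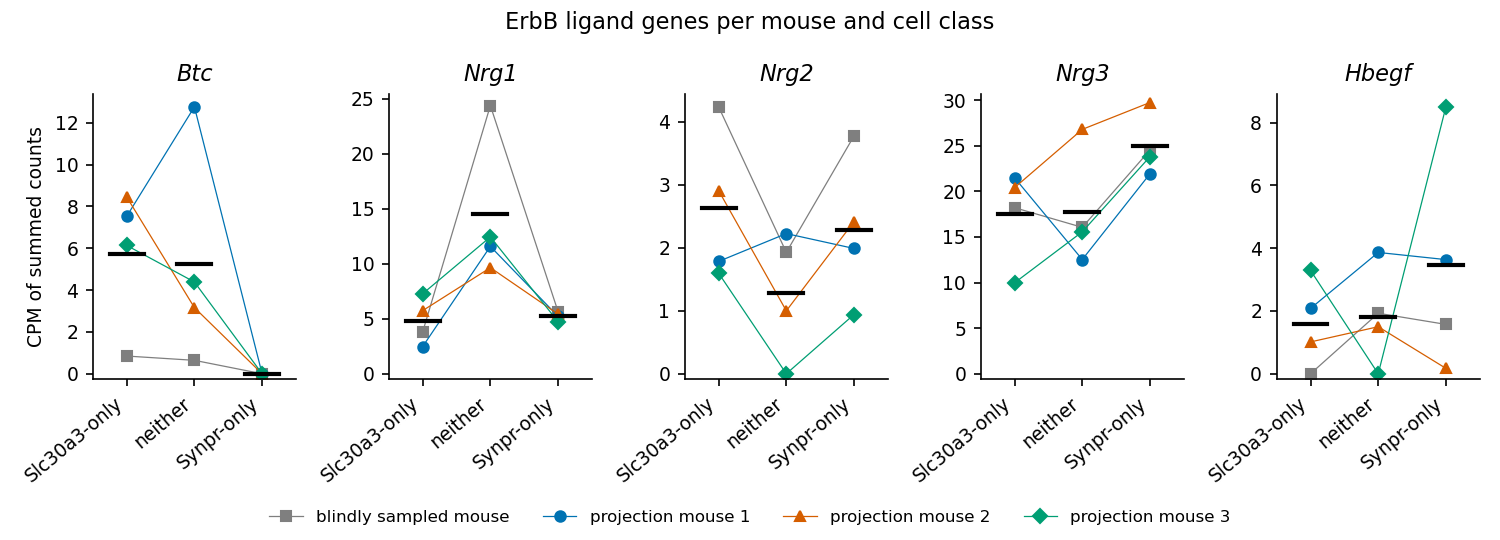
CPM of the summed counts (y axis, starting at 0) of the 5 ligand genes in Slc30a3-only cells, cells under both limits (neither) and Synpr-only cells of the 4 mice (points, joined within a mouse), with the mean over mice as a black bar. Btc is at 0 in Synpr-only cells of every mouse, and Nrg1 in the cells under both limits (9.65 to 24.4 CPM) lies above its values in the other classes (2.48 to 7.28 CPM).

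No difference of Nrg2 or Hbegf passed the test. Nrg2, a close relative of Nrg1, had 235 counts in 84 cells and stood at 2.63 ± 1.22 CPM (SD, n = 4 mice) in Slc30a3-only cells, 2.28 ± 1.17 CPM in Synpr-only cells and 1.287 ± 1.004 CPM in cells under both limits. By label it was at 2.16 ± 1.20 CPM (SD, n = 3 mice) in LEC-labeled, 2.10 ± 1.45 CPM in unlabeled and 1.16 ± 0.15 CPM in RSC-labeled cells. The log2 difference of -0.86 ± 0.83 (SE) between RSC and LEC did not pass edgeR's test (adjusted p = 0.71).

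Hbegf, the gene of heparin-binding EGF-like growth factor, had 465 counts in 38 cells. It stood at 1.08, 3.19, 0.782 and 5.72 CPM over the kept cells of the 4 mice. In RSC-labeled cells it was at 0.0762, 0.142 and 9.21 CPM, and the highest value, of projection mouse 3, rested on 9 cells with up to 61 counts in 1 of them. In LEC-labeled cells it was at 5.09, 0.0817 and 4.02 CPM. The values of the 2 labels overlapped, and the log2 difference was 0.10 ± 1.44 (SE, n = 3 mice; adjusted p = 0.99).

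Of the 435 cells with a ligand, 89 had more than 1. None of the 25 cells with Btc had a count of Nrg1, while 12.9% of all kept cells did, and 4 of the 25 (16%) had Nrg3, against 25.3% of all kept cells. Of the 130 cells with Nrg1, 42 (32.3%) had Nrg3, which are 16.4% of the 256 cells with Nrg3. These shares are descriptions that depend on the depth of each cell.

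Most receptor counts lay in a few cells that carried markers of other cell types. Erbb4, the neuregulin receptor of interneurons, had 377 counts in 10 kept cells of the projection mice. Of these counts, 361 (95.8%) lay in 2 of the 4 kept cells that had counts of both Gad1 and Gad2, the enzymes that make GABA, while the other 1007 kept cells, those of the mouse whose table does not list Erbb4 included, held 16 counts in 8 cells. The cell with the most Erbb4, 315 counts or 1048 CPM, was an RSC-labeled cell of projection mouse 3 with 392 counts of Gad1, 214 of Gad2 and 1 of Slc17a7. The second, with 46 counts, was an unlabeled cell of that mouse with 391 counts of Gad1, 462 of Gad2 and 1 of Slc17a7. Both had passed the rule for excitatory neurons through a single Slc17a7 count. By the summed interneuron list, only the second lay in the top 1% of the kept cells (over the 99th percentile, 3557 CPM). The first stood at 3181 CPM of that list. The 11 kept cells over that percentile thus held 46 of the Erbb4 counts (12.2%).

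In the kept cells of projection mice 1, 2 and 3, Erbb4 stood at 0.0270, 0.361 and 6.65 CPM, and the highest was the mouse of those 2 cells. Erbb4 failed the low-count filter in each comparison. Without that filter it passed the test between RSC and LEC (adjusted p = 0.044), but LEC-labeled cells had no count and 315 of the 323 counts in RSC-labeled cells lay in 1 cell, so no size is given and the p is a description.

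Erbb3, a receptor that signals only with a partner, had 70 counts in 4 kept cells, 3 of projection mouse 1 and 1 of projection mouse 2. All 4 lay among the 11 kept cells at the top 1% of a summed list of 6 oligodendrocyte markers (over the 99th percentile), with 6032 to 35934 CPM of that list against a median of the kept cells of 3.18 CPM. The remaining 1000 kept cells had no Erbb3 count, and those of the blindly sampled mouse could have none listed. The 4 cells with Erbb3 also had 15 to 38 counts of Slc17a7 and 2035 to 5224 CPM of the excitatory neuron list. The one with the most Erbb3, 44 counts, was a Synpr-only cell with 1576 CPM of Synpr. Erbb3 passed the filter only in the fit of the classes, where its log2 difference of 0.21 ± 1.83 (SE) between Synpr-only and Slc30a3-only cells did not pass edgeR's test (adjusted p = 1). The split at the 99th percentile was chosen after the values were seen.

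Egfr, the receptor of EGF, had 4 counts in 4 kept cells, 1 each. Of these counts, 1 (25%) lay in the 11 kept cells over the 99th percentile of the astrocyte list. Erbb2, the partner receptor, had 1 count, in 1 LEC-labeled Slc30a3-only cell of projection mouse 2. With 1 count in 1011 cells its share was 0.099% (95% exact Clopper-Pearson interval, 0.0025 to 0.55%). Erbb2 shares exon bases with Mien1 on the opposite strand. Neither receptor passed the filter in any comparison, and at these counts no difference between groups was detectable.

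**Figure D4:**
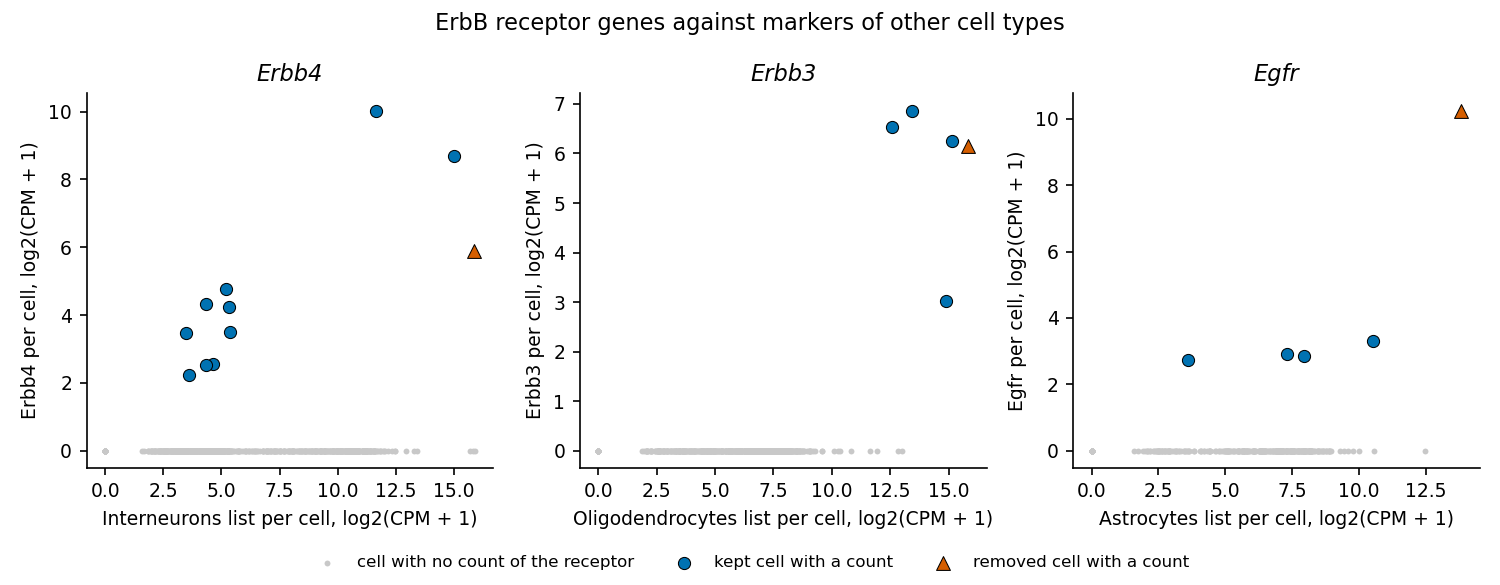
Each point is 1 of the 1112 harvested cells, placed by its level of a marker list of another cell type (x axis) and of a receptor (y axis), both in log2(CPM + 1): Erbb4 against interneuron markers, Erbb3 against oligodendrocyte markers and Egfr against astrocyte markers. Cells with a receptor count are circles if kept and triangles if removed, and cells of the blindly sampled mouse are drawn at 0 for Erbb3 and Erbb4, which its table does not list; the 5 cells with Erbb3 all lie at 6032 CPM or more of the oligodendrocyte list, and the cell with the most Egfr, a removed cell, lies at 14543 CPM of the astrocyte list.

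Genes that act around the receptors were taken from a list of 51 symbols of other ligands, proteases that release ligands, adaptors, the ERK, PI3K and STAT branches, and regulators, of which 49 are listed in the tables. Between RSC and LEC, 1 of 40 tested genes was higher and none lower (2.5%, against 3.95% of all genes), with a median log2 difference of 0.06 against 0.00 over all genes. Between Synpr-only and Slc30a3-only cells, 1 of 44 was higher and none lower (2.27%, against 4.73%), with a median of -0.01 against 0.00. By the Synpr limit, 2 of 39 were higher and 1 lower (7.69%, against 8.77%). These shares lie at or below those of all genes.

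The gene called between Synpr-only and Slc30a3-only cells was Stat5b, a transcription factor downstream of several receptor kinases. It stood at 6.92, 11.7, 12.1 and 10.5 CPM in the Synpr-only cells of the 4 mice and at 0, 1.98, 1.01 and 0.199 CPM in the Slc30a3-only cells. The groups did not overlap, and the blindly sampled mouse was the lowest in both. The log2 difference was 3.61 ± 0.79 (SE, n = 4 mice), with an adjusted p of 0.016 by edgeR's test (range over 17 alternatives, 3.48e-05 to 0.16). The call was lost in 4 of these, without projection mouse 2 (adjusted p = 0.13) or 3 (adjusted p = 0.16), with a Synpr limit of 100 CPM (adjusted p = 0.12) and with an Slc30a3 limit of 10 CPM (adjusted p = 0.098). The Slc30a3-only cells of the 4 mice held 0, 20, 15 and 4 Stat5b counts. Stat5b passed the low-count filter only through the other classes, so this p is a description, as for Btc. Cells under both limits stood at 5.14, 3.51, 12.5 and 6.23 CPM, which overlapped the Synpr-only cells and lay above the Slc30a3-only cells.

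Stat5b was also called by the Synpr limit (log2 difference 1.97 ± 0.39, adjusted p = 0.011), together with the protease gene Adam10 (0.49 ± 0.13, adjusted p = 0.046), which was higher over the limit, and the PI3K subunit gene Pik3r1 (-0.62 ± 0.14, adjusted p = 0.023), which was lower. By the Slc30a3 limit Stat5b was the only list gene called of 39 (-2.58 ± 0.60, adjusted p = 0.045), which is 2.56% against 3.65% of all genes. There Stat5b had 0 counts over the limit in the blindly sampled mouse and passed the filter only through the cells under it. The p by the Slc30a3 limit is therefore a description as well. The calls by the Synpr and Slc30a3 limits share cells with the class comparison and are not independent of it. Leaving out 1 mouse ended each of these calls at least once, and for Adam10 with any of the 4 mice (adjusted p up to 0.26).

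The gene called between RSC and LEC was Nras, a small GTPase of the ERK branch. It stood at 68.8, 66.0 and 60.0 CPM in RSC-labeled and at 43.6, 35.5 and 42.9 CPM in LEC-labeled cells of projection mice 1, 2 and 3. The values did not overlap, and the log2 difference of 0.71 ± 0.18 (SE, n = 3 mice) passed edgeR's test narrowly (adjusted p = 0.049). The call was lost in 8 of 12 alternatives, among them a fit blocked on the mouse (adjusted p = 0.054) and each fit that left out a mouse (adjusted p up to 0.27), and its direction was the same in all 12. In cells under both limits against the other classes the adaptor gene Grb7 was the only list gene called of 44 (adjusted p = 0.026), which is 2.27% against 2.79% of all genes. Its 50 counts in those cells lay in 8 of 214 cells, with 4, 14, 32 and 0 counts in the 4 mice, against 1 count in the Synpr-only cells and none in the Slc30a3-only cells. Grb7 passed the low-count filter only through the cells under both limits, so this p is a description, as for Btc. The call was lost without any 1 of the 4 mice (adjusted p up to 0.27). No list gene was called between RSC-labeled and unlabeled cells, LEC-labeled and unlabeled cells, or cells under both limits and Slc30a3-only cells. Grb7, Adam10 and Pik3r1 were named after their values were seen.

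The genes most like each ligand over the 14 sums of mouse and class were found by Pearson's r of log2 CPM centred within each mouse. For Btc they were Dcn, Rnf39 and Esr1 (r = 0.979, 0.979 and 0.976). For Nrg1 they were Rnf149, Gm6155 and Stk38 (r from 0.954 to 0.983), and for Nrg3 they were Ppm1a, Tcf25 and Ubxn1 (r from 0.948 to 0.954). The sums share mice, depth and class sizes, and the best of 14331 genes were taken, so these are descriptions only. For Nrg2 (Gm14776, Gm17259 and 4930429B21Rik), Hbegf (Il15ra, Reep4 and C330027C09Rik) and Erbb3 (Pitpnb, Tet1 and 5033414D02Rik) r lay between 0.902 and 0.948.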

How the data were processed

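The authors assigned each read to its UMI (a tag for 1 molecule) and its cell, aligned the reads with STAR (version not given in the sources used here) and deposited counts per gene and cell that were not normalized; the study states totals in reads, and whether a deposited count is a read or a UMI is not given in the sources used here. The submitters' processing notes name NCBIM37 and Seurat. Spike-ins were left out. Counts of kept cells were summed per mouse and group (at least 5 cells) and compared over all genes, without Snap25, Slc17a7, Synpr and Slc30a3, by edgeR 4.0.16 in R 4.3.3 (TMM scaling, the low-count filter of filterByExpr, the quasi-likelihood F test and an adjusted p by Benjamini-Hochberg under 0.05), with DESeq2 1.42.0 and limma 3.58.1 (log2 of mean CPM + 1) as alternatives. A gene not listed in a table was set to 0. Each mouse is 1 replicate. The SE of a log2 difference is its size divided by the square root of the F of its test, and is not a spread between mice. The groups of 1 mouse share that animal, and deviations from the group means correlated at a median of 0.035 (labels) to 0.18 (limits) within a mouse, against -0.095 to -0.020 between mice. Sequences came from GENCODE vM21 transcripts (Biopython 1.88).

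The 9 genes and all lists were chosen with earlier results of these data known. Named were all 9 genes, the list genes called between Synpr-only and Slc30a3-only or RSC and LEC, and the 3 genes most like each tested ligand or receptor.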

Additional observations from a re-analysis of the deposited data

Results flagged for a closer look

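The 101 cells removed for lack of Snap25 or Slc17a7 entered no comparison. In their summed counts 4 of the 9 genes stood higher than in the kept cells, each through a single cell. Egfr was at 17.9 CPM against 0.0302 CPM in the kept cells, through 23 counts in an unlabeled cell of projection mouse 1 with 14543 CPM of the astrocyte list. Hbegf was at 41.3 CPM against 3.51 CPM and Erbb4 at 8.56 CPM against 2.85 CPM, through 53 and 11 counts in 1 RSC-labeled cell of projection mouse 3 with counts of both Gad1 and Gad2. Erbb3 was at 3.11 CPM against 0.529 CPM, through 4 counts in 1 RSC-labeled cell of projection mouse 1 with 58404 CPM of the oligodendrocyte list. The median total of the removed cells was 4813 counts, and the 3 cells that carry these counts had totals of 188305, 56914 and 18909. No Btc count lay in a removed cell.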

How the results depend on the processing

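The number of the 9 genes called was 1 between RSC and LEC (2 with no filter on low counts; 0 to 1 leaving out 1 mouse), 1 between RSC and unlabeled (0 leaving out any mouse), 1 by the Synpr limit (0 in thinned cells and with at least 2 counts of Snap25 and Slc17a7, where Btc failed the filter) and 1 between Synpr-only and Slc30a3-only cells (0 to 1 leaving out 1 mouse). For cells under both limits against the mean of the other classes it was 1, and it became 2 with DESeq2 and with an Slc30a3 limit of 40 CPM, 0 in thinned cells, with at least 2 counts and with limma, and 0 to 1 leaving out 1 mouse. Against Slc30a3-only cells it was 0, and 1 with DESeq2 (Nrg1). Each call of the main fits was that of Btc, and the second call between RSC and LEC with no filter was that of Erbb4, both descriptions as stated above. The number of the 9 genes called stayed at 0 between LEC and unlabeled and by the Slc30a3 limit. The mouse as a replicate block changed none of these counts (1, 1, 0, 1, 0, 1, 1 and 0 in this order, with the Slc30a3 limit after the Synpr limit and Slc30a3-only last); among the list genes it ended the call of Nras. With that block the genes called of all tested rose from 1196 to 1994 by the Synpr limit, from 492 to 1042 by the Slc30a3 limit, from 678 to 1034, from 400 to 616 and from 63 to 129 in the class comparisons, and from 0 to 2 between LEC and unlabeled. With DESeq2 they were 1141, 659, 121, 1797, 969, 1169, 807 and 261 in the order of the comparisons, against 552, 227, 0, 1196, 492, 678, 400 and 63. With limma they were 855 between RSC and LEC, 438 between RSC and unlabeled and 24 between LEC and unlabeled. Between RSC and unlabeled they were also 477 in thinned cells and 121 without plate 12, and between LEC and unlabeled 39 in thinned cells and 9 with no filter. With a Synpr limit of 100 CPM the class comparisons called 422, 215 and 23, with an Slc30a3 limit of 10 CPM 406, 222 and 20, and with one of 40 CPM the last called 100. Leaving out 1 mouse gave 59 to 387 between RSC and LEC, 8 to 45 between RSC and unlabeled, 0 to 2 between LEC and unlabeled, 543 to 1582 by the Synpr limit, 106 to 644 by the Slc30a3 limit, and 216 to 999, 126 to 532 and 2 to 77 in the class comparisons.

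Directions turned only for differences that failed the test. Between RSC and LEC, Nrg1 was at -0.26 (log2) in thinned cells, -0.022 with limma and -0.37 to 0.69 leaving out 1 mouse, and Hbegf at -0.57 with the replicate block, -0.033 with at least 2 counts, -0.28 with limma and -4.47 to 1.23 leaving out 1 mouse. Btc between LEC and unlabeled was at -0.41 in thinned cells, -0.30 with limma and -0.64 to 0.87 leaving out 1 mouse, and between cells under both limits and Slc30a3-only cells at -0.87 to 0.28 leaving out 1 mouse. By the Synpr limit, Nrg2 was at -0.022 with the block, -0.078 with at least 2 counts, -0.076 with limits of 100 and of 400 CPM, and -0.015 to 0.087 leaving out 1 mouse. Between Synpr-only and Slc30a3-only cells, Nrg1 was at -0.15 with an Slc30a3 limit of 10 CPM and -0.050 to 0.44 leaving out 1 mouse, and Nrg2 at 0.0098 with limma. For cells under both limits against the mean, Nrg3 was at 0.29 in thinned cells, and Hbegf at 0.12 with the block and -1.13 to 0.80 leaving out 1 mouse. Thinning moved the shares of cells with a count outside their intervals for 7 of the 9 genes, and the causes of these changes were not tested.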

Other observations

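Other ligands of the family that were not among the 9 genes were sparse in the kept cells. Egf was counted in 28 cells with 202 counts, Tgfa in 27 cells with 67 counts and Nrg4 in 24 cells with 104 counts. Areg was counted in 6 cells, Ereg in 4 and Epgn in 2, and the table of the blindly sampled mouse does not list Epgn. All of these were counted in fewer cells than Nrg1, Nrg2, Nrg3 or Hbegf (38 cells). Egf and Tgfa were counted in more cells than Btc (25 cells).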
